A study of Mus musculus with 18 samples.

Results

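The genes described here are 9 markers of fibro-adipogenic progenitors and the stromal cells that descend from them: Pdgfra, Cd34, Ly6a, Dpt, Pi16, Dpp4, Gsn, Smoc2 and Mfap5. They were taken by name from a table of normalised read counts that lists 20922 genes, and all 9 were found in it. None of the 9 had a mean below 10 over the 18 libraries, so all 9 were among the 12262 genes tested, and Dpp4 was the lowest of them. The RNA came from the tibialis anterior, a fast muscle of the lower hindlimb of the mouse, at day 36 after the femoral artery of 1 limb had been tied off to model peripheral artery disease. The table was analysed for the 4 groups that the labels give: 5 intact limbs of control mice (WT intact, numbered 2 to 6), 4 ligated limbs of control mice (WT ligated, numbered 2, 4, 5 and 6), 5 intact limbs of mice labelled as Bmal1 knockouts (BKO intact, numbered 1 to 5) and 4 ligated limbs of such mice (BKO ligated, numbered 2, 4, 5 and 6). Every library of both genotypes came from mice with floxed Bmal1 alleles (Bmal1 fx/fx) in a cross with ACTA-rtTA-TRE-Cre, and an intact limb was the contralateral limb of an operated mouse, not a limb of an unoperated one. ACTA is the promoter of skeletal muscle actin, so the deletion was aimed at muscle fibres and not at the stromal cells whose markers are described here. It was started by doxycycline given by mouth, which ended a week before surgery.

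The labels write the transgene as Cre+/+ for the controls and Cre-/- for the knockouts, and every direction below rests on the group names alone. The normalised read count of Bmal1 itself lay between 41.3 and 68.4 in WT intact, 12.2 and 18.3 in WT ligated, 42.4 and 61.1 in BKO intact and 63.8 and 82.0 in BKO ligated. In intact limbs the ranges of WT and BKO overlapped, and in ligated limbs Bmal1 was higher in all 4 BKO libraries than in any WT library, against the label. A total over all exons does not check a label when only part of a gene is removed, so WT and BKO stand throughout for libraries labelled WT and BKO. Recovered depth was 14089381 to 25629204 reads a library. The mitochondrial ribosomal RNA mt-Rnr2 took 31.9 to 36.1% of the reads in intact limbs and 38.1 to 55.5% in ligated limbs, with the highest shares, 51.9 and 55.5%, in BKO ligated 4 and 5. The labels do not say whether the 2 limbs of a mouse share a number. The limma p-values set a difference against the spread between libraries within groups, estimated over all 4 groups together. The labelled tissue was checked with 11 genes of fast muscle fibres, whose summed normalised counts ran from 1370812 to 1648089.7 in WT intact and from 1337332 to 1600936 in BKO intact. In ligated limbs the sums were below every intact library of the same genotype, at 1013184 to 1192127 in WT and 1174603 to 1309216 in BKO.

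Fibro-adipogenic progenitors are mesenchymal cells that lie between muscle fibres and carry the PDGF receptor alpha on their surface. After injury they divide, secrete factors that help satellite cells, and later either die or become fibroblasts and adipocytes, which is why they are studied in fibrosis and fatty change of muscle. A branch with Pi16 and Dpp4 is described around vessels and in the fascia of many organs and is often called progenitor-like, whereas cells rich in Smoc2 lie within the muscle. In RNA from whole muscle, fewer cells of a type and less RNA per cell cannot be told apart, and several of the markers are not made by stromal cells alone: Cd34 and Ly6a are also made by endothelial cells, and Gsn by many cell types.

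Promoter sequences are given for the 3 genes that passed the test between WT and BKO in at least 1 kind of limb, namely Dpt, Dpp4 and Gsn, because Bmal1 is a transcription factor that binds E-boxes. Each window runs from 250 bases before to 50 bases after a RefSeq transcription start (GRCm38.p6), and 6 of the 9 genes had 1 or more windows, 8 in all, of which 3 were of Gsn. Capitals mark each CANNTG, the general E-box, and each TATAAA on the strand shown. The Dpt window is chr1:164796413-164796712 (plus strand), the Dpp4 window chr2:62412182-62412481 (minus strand) and the first of the Gsn windows chr2:35256109-35256408 (plus strand).
Dpt: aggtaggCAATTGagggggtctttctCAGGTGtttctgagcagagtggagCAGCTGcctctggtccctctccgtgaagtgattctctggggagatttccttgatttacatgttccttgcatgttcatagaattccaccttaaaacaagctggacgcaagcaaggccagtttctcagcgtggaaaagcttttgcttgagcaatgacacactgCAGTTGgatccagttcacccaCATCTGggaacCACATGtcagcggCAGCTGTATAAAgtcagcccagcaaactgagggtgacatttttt
Dpp4: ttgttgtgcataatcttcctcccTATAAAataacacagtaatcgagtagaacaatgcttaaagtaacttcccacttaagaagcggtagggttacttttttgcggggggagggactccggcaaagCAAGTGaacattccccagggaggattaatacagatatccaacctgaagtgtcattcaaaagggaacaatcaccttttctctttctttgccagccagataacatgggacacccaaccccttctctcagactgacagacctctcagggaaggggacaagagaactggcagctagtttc
Gsn: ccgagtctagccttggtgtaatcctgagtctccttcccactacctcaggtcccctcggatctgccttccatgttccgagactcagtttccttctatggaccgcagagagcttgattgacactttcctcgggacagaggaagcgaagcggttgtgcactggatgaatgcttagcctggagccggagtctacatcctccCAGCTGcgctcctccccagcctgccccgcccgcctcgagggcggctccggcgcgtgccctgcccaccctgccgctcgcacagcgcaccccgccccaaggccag
CACGTG, the E-box form best known for the clock factors, was found in none of the 8 windows on either strand, and neither was CACGTT. Among all 32851 RefSeq mouse windows of 300 bases, 7.15% held CACGTG and 4.68% CACGTT. The broad form CANNTG was common, with a match in 72.3% of all windows. Dpt held 7 matches to it, a number reached by 58 of the windows (0.177%), where the median was 1. The number 7 was taken from Dpt itself, so that share is a description and not a test. TATAAA, held by 13.6% of windows, began 12 bases after the RefSeq start of Dpt, where it directly followed a CAGCTG, and 227 bases before the start of Dpp4. AGGTCA, a binding motif of the REV-ERB and ROR nuclear receptors, was held by 16.3% of windows and by 1 of the 3 Gsn windows. These are letter matches within 300 bases only.

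In the annotation of the same build (GRCm38, GENCODE vM21) all 9 are protein-coding genes, and the counts cover their exons. Pdgfra lies on chromosome 5 (75152292 to 75198215), Cd34 on chromosome 1 (194938819 to 194961279) and Ly6a on chromosome 15 (74994877 to 74998031). Dpt is also on chromosome 1 (164796644 to 164824266), and Dpp4 and Gsn share chromosome 2 (62330073 to 62412231 and 35256380 to 35307892). Pi16 and Smoc2 lie on chromosome 17 (29317680 to 29330593 and 14279506 to 14404790) and Mfap5 on chromosome 6 (122505845 to 122529290). Exons of Pdgfra, Cd34, Dpp4 and Pi16 overlap those of minor antisense genes, of which Gm16897, opposite Cd34, was in the table with a mean of 0.920. Ly6a belongs to a family of related Ly6 genes, and its counts are uncertain where reads could be split among them, which was not measured.

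Levels between genes were set side by side per kilobase of annotated exons. Gsn, which encodes the actin-severing protein gelsolin, was the highest in every group, with 1656 ± 171 normalised counts per kilobase in WT intact (SD, n = 5). Dpp4, a surface peptidase, was the lowest in every group, with 5.59 ± 1.51 per kilobase there. In WT intact the order from the top was Gsn, Ly6a, Smoc2, Dpt, Cd34, Pdgfra, Pi16, Mfap5 and Dpp4. Neighbours whose libraries overlapped in that order were Ly6a with Smoc2, Smoc2 with Dpt, Pdgfra with Pi16, and Pi16 with Mfap5. Dpt moved up the order in WT ligated, from rank 4 to rank 2, at 207 ± 10.8 per kilobase (SD, n = 4). It was then not separate from Ly6a, at 154 ± 38.9, but lay above every Smoc2 value, at 106 ± 15.1. In BKO ligated Dpt took rank 3, at 115 ± 22.9 per kilobase, between Ly6a and Smoc2 and overlapping both.

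**Figure D1:**
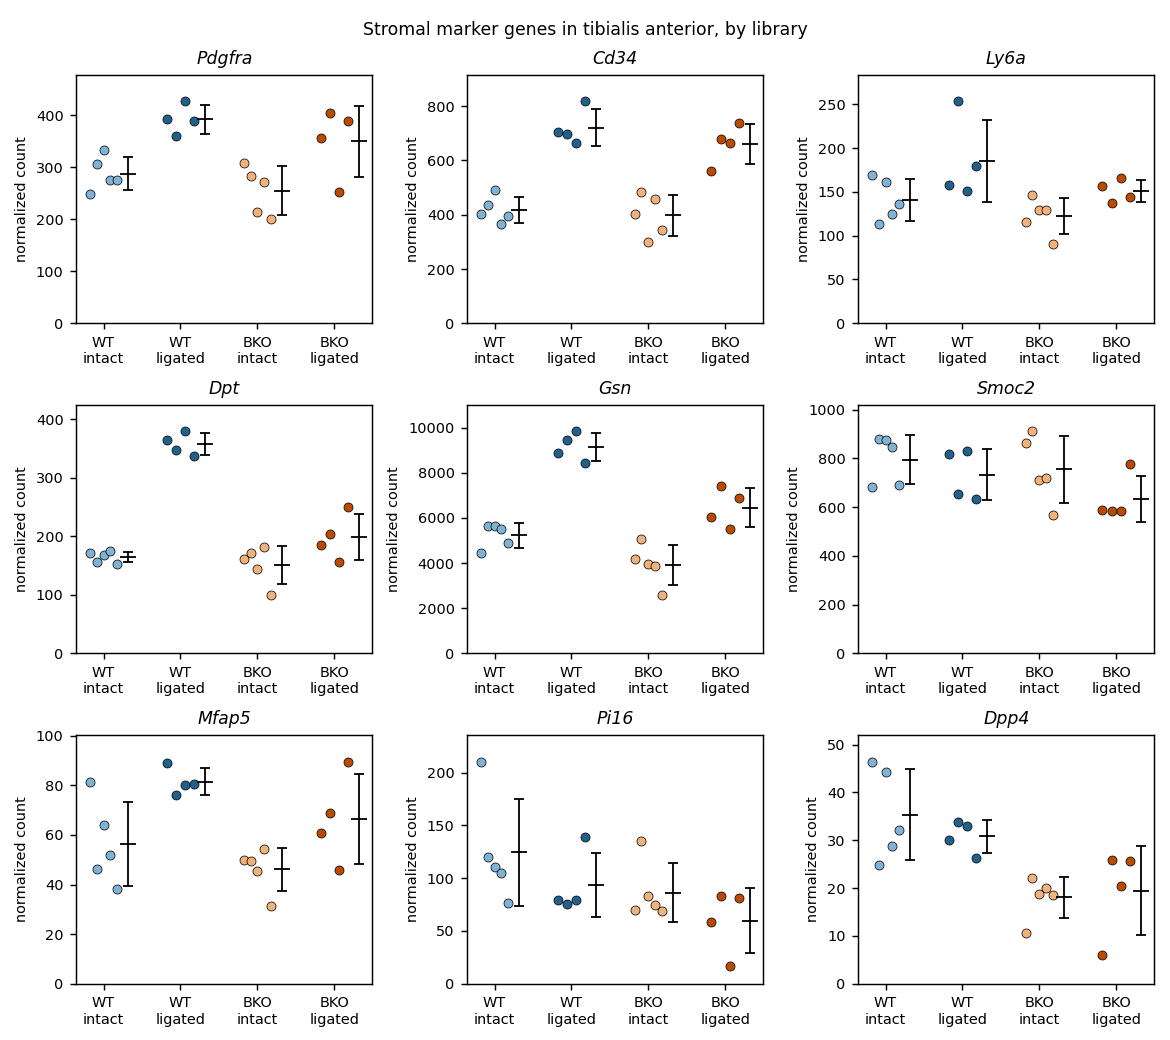
Normalised read counts of the 9 genes in each of the 18 libraries, 1 panel a gene, by group (WT intact, WT ligated, BKO intact, BKO ligated), with points for libraries and a bar for the group mean with its SD. Dpt in WT ligated stands between 337 and 379.6, above every library of the other 3 groups.

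The first question was how the genes differed between ligated and intact limbs of WT mice. With limma, 5 of the 9 rose and none fell at an adjusted p under 0.05, whereas 39.8% of all genes tested passed in either direction, 18.7% higher and 21.1% lower. Those that rose were the receptor Pdgfra, the surface sialomucin Cd34, the matrix proteins Dpt and Mfap5, and Gsn. At an unadjusted p under 0.05 limma gave 6 higher and 0 lower (47.9% of all genes tested, in either direction). After adjustment edgeR gave 6 and 0, and DESeq2 5 and 0. The median log2 difference of the 9 was 0.45, and that of all genes tested was 0.00 to 2 decimals (-0.0025). The groups did not overlap for 4 of the 9 (Pdgfra, Cd34, Dpt and Gsn), as was the case for 32.5% of all genes tested.

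Dpt encodes dermatopontin, a small matrix protein that binds decorin and collagen. It stood at 172, 156, 169, 174 and 154 normalised counts in WT intact 2 to 6 and at 365, 349, 379.6 and 337 in WT ligated 2, 4, 5 and 6. The ligated libraries lay close together and the lowest of them was far above the highest intact one. The log2 difference was 1.11 ± 0.15 (SE, limma adjusted p = 5.02e-06), a 2.16-fold rise.

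Gsn counted 4454, 5662, 5641, 5514 and 4875 in WT intact and 8868, 9457, 9832 and 8424 in WT ligated. Every ligated library was above every intact one, and the log2 difference was 0.81 ± 0.13 (SE, limma adjusted p = 7.35e-05). Cd34, which marks stromal and endothelial cells, counted 403, 436, 492, 365 and 395 in WT intact and 706, 697, 663 and 819 in WT ligated. Its groups were separate too, with a log2 difference of 0.79 ± 0.12 (SE, limma adjusted p = 4.15e-05). Pdgfra, the defining receptor of these progenitors, moved less. It counted 248, 307, 332, 275 and 276 in WT intact and 392, 359, 427 and 388 in WT ligated. The groups were separate and the log2 difference was 0.45 ± 0.14 (SE, limma adjusted p = 0.0146).

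Mfap5, a glycoprotein of elastic microfibrils, counted 81.3, 46.2, 64.1, 52.0 and 38.1 in WT intact and 89.1, 75.9, 80.1 and 80.7 in WT ligated. WT intact 2 reached into the ligated range. The log2 difference was 0.57 ± 0.21 (SE, limma adjusted p = 0.0372), and it did not pass without any 1 of 7 of the 9 libraries, with adjusted p up to 0.104 (without WT intact 6). Ly6a, which encodes the stem cell antigen Sca-1, counted 169, 114, 162, 124 and 136 in WT intact and 158, 254, 151 and 179.5 in WT ligated. WT ligated 4 and 6 lay above the intact range, WT ligated 2 and 5 lay within it, and the log2 difference of 0.38 ± 0.16 did not pass (SE, limma adjusted p = 0.0628).

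Pi16, Dpp4 and Smoc2 gave no call in either direction. Pi16, a secreted peptidase inhibitor of fibroblasts, counted 210.4, 119.6, 110.4, 105 and 76.3 in WT intact and 79.4, 75.9, 79.2 and 139 in WT ligated. The intact libraries spread widely, from WT intact 2 at the top to WT intact 6 at the bottom, and the log2 difference was -0.37 ± 0.37 (SE, limma adjusted p = 0.445). Dpp4 counted 46.5, 24.9, 44.3, 28.9 and 32.1 in WT intact and 30.0, 33.9, 33.1 and 26.4 in WT ligated, with a log2 difference of -0.16 (95% interval -0.84 to 0.53, adjusted p = 0.733). All WT ligated libraries fell within the intact range. Smoc2, a matrix-associated calcium-binding protein, counted 681, 881, 876, 846 and 691 in WT intact and 817, 654, 831 and 632 in WT ligated. Its groups overlapped over most of their range, and the interval of its log2 difference ran from -0.40 to 0.16 around -0.12 (limma adjusted p = 0.511).

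The same comparison in BKO mice uses other libraries and so repeats the ligation contrast. Here 4 of the 9 rose and none fell (limma), beside 47.2% of all genes tested called in either direction, 22.1% higher and 25.1% lower. The share called in either direction was thus near that of all genes. Pdgfra, Cd34, Dpt and Gsn rose. At an unadjusted p under 0.05 limma gave 5 higher and 0 lower (53.5% of all genes tested). After adjustment edgeR gave 5 and 0, and DESeq2 4 and 0. Cd34 and Gsn were the 2 genes whose groups did not overlap, beside 35.7% of all genes tested. The median of the 9 was 0.40.

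Cd34 counted 405, 482, 300.3, 458 and 343 in BKO intact 1 to 5 and 563, 679.8, 663 and 738 in BKO ligated 2, 4, 5 and 6. The log2 difference was 0.75 ± 0.12 (SE, limma adjusted p = 5.99e-05). Gsn counted 4204, 5047, 3964, 3856 and 2598 in BKO intact and 6035, 7413, 5504 and 6873 in BKO ligated. For both genes each ligated library was above each intact one, and for Gsn the log2 difference was 0.74 ± 0.13 (SE, limma adjusted p = 0.000154). Pdgfra counted 308, 283, 214, 270.4 and 200.1 in BKO intact and 356, 404, 251 and 388 in BKO ligated. BKO ligated 5 lay within the intact range, and the log2 difference was 0.45 ± 0.14 (SE, limma adjusted p = 0.0119). It did not pass without BKO ligated 4 (adjusted p = 0.0525).

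Dpt rose less in BKO mice. It counted 161, 172, 145, 182 and 99.2 in BKO intact and 185, 204, 156 and 250.1 in BKO ligated. BKO ligated 5 was below 3 of the intact libraries and BKO intact 5 was the lowest of all. The log2 difference was 0.40 ± 0.15 (SE, limma adjusted p = 0.0309), and the call was lost without BKO intact 3, BKO intact 5, BKO ligated 4 or BKO ligated 6 (adjusted p up to 0.131) and in a fit on the groups compared alone (adjusted p = 0.0871).

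The other 5 genes did not pass in BKO. Mfap5 counted 49.8, 49.5, 45.3, 54.4 and 31.4 in BKO intact and 61.0, 68.7, 46.0 and 89.6 in BKO ligated, with a log2 difference of 0.50 (limma adjusted p = 0.0583). BKO ligated 5 was again within the intact range, and without it the adjusted p was 0.0192. Ly6a counted 116, 146, 129, 129 and 90.7 in BKO intact and 157, 137, 165 and 145 in BKO ligated, a log2 difference of 0.32 (limma adjusted p = 0.106). Pi16 counted 70.2, 135, 82.7, 74.5 and 68.7 in BKO intact and 58.0, 83.4, 16.3 and 81.6 in BKO ligated, the value of BKO ligated 5 coming from 16 reads. Its log2 difference was -0.71 ± 0.37 (SE, limma adjusted p = 0.122), and -0.18 without BKO ligated 5. Dpp4 counted 10.7, 22.1, 18.7, 20.1 and 18.7 in BKO intact and 6.0, 25.8, 20.4 and 25.7 in BKO ligated, the lowest from 6 reads. Its log2 difference of -0.04 turned positive, to 0.42, without BKO ligated 2. Smoc2 counted 864, 911, 712, 719 and 569 in BKO intact and 587, 587, 584 and 777 in BKO ligated. The estimate was -0.24 (limma adjusted p = 0.141), and it passed as a fall without BKO intact 5 (adjusted p = 0.0319) or BKO ligated 6 (adjusted p = 0.0446).

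**Figure D2:**
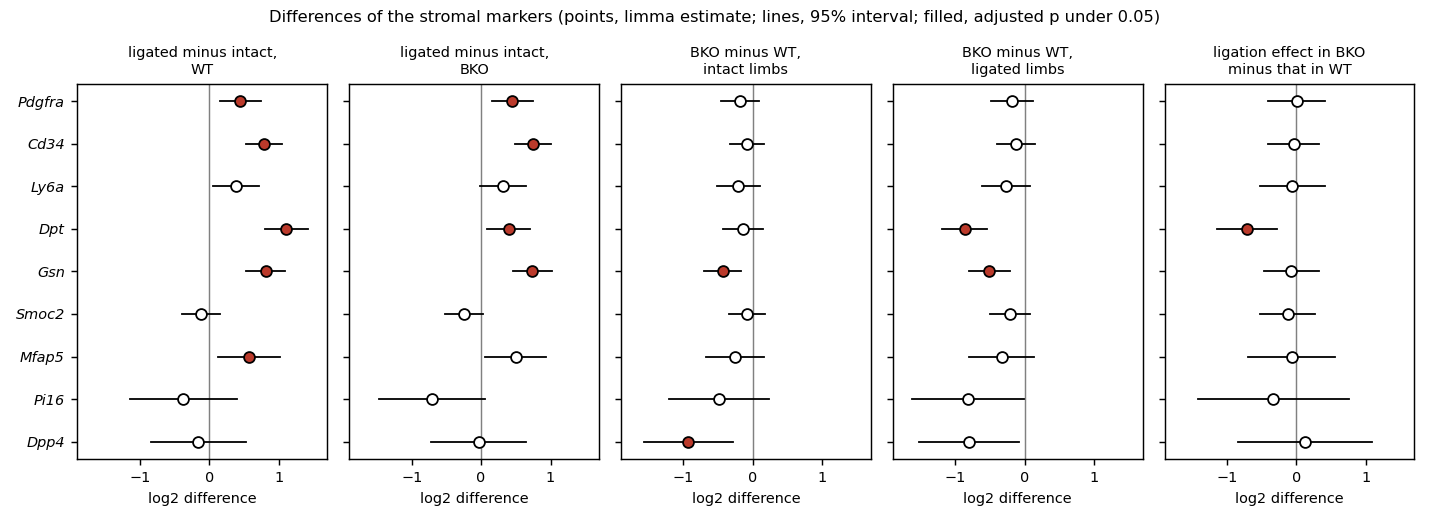
Log2 differences of the 9 genes in the 4 comparisons between groups and in their interaction, with 95% intervals from limma, with filled points for an adjusted p under 0.05. In both genotype comparisons all 9 points lie below 0, and of those 18 intervals that of Dpt in ligated limbs, -1.18 to -0.54, keeps the greatest distance from 0.

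The next question was whether the genes differed between BKO and WT in the intact limb. The directions here rest on group names that the level of Bmal1 did not check. Dpp4 and Gsn fell, 2 of the 9, and none rose (limma), beside 18.3% of all genes tested called in either direction, 8.56% higher and 9.75% lower. As a share, 2 of 9 is near that background. At an unadjusted p under 0.05 limma gave 0 higher and 2 lower (30.3% of all genes tested), and after adjustment edgeR and DESeq2 each gave 0 higher and 2 lower. All 9 estimates were negative, as were 49.98% of those of all genes tested, and the median of the 9 was -0.21. The groups did not overlap for 1 gene, Dpp4, beside 14.4% of all genes tested.

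Dpp4 was at 24.9 to 46.5 in WT intact and at 10.7 to 22.1 in BKO intact. All BKO libraries were below all WT libraries, but the values rest on 12 to 45 reads each. The log2 difference was -0.93 ± 0.31 (SE, limma adjusted p = 0.0407), 1.90 times lower, and the call was lost without any 1 of 7 of the 10 libraries (adjusted p up to 0.114, without BKO intact 1) and with no filter on low values (adjusted p = 0.0696). Gsn averaged 5229 ± 539.6 in WT intact and 3934 ± 881 in BKO intact (SD, n = 5 each). Only BKO intact 2, at 5047, reached into the WT range. The log2 difference was -0.44 ± 0.13 (SE, limma adjusted p = 0.0199), 1.35 times lower, and the adjusted p was 0.0520 without WT intact 3 and 0.0521 without WT intact 4. The remaining genes had estimates from -0.49 for Pi16 (95% interval -1.21 to 0.23) to -0.08 for Smoc2 (95% interval -0.35 to 0.18). Pdgfra itself was at 288 ± 32.5 in WT intact and 255 ± 46.2 in BKO intact, with an interval of -0.46 to 0.09 around -0.19. BKO intact 5 had the lowest value of its group for 7 of the 9 genes, and BKO intact 2 the highest for 6.

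In ligated limbs Dpt and Gsn were lower in BKO, 2 of the 9, and no gene was higher (limma), beside 8.84% of all genes tested called in either direction, 4.16% higher and 4.68% lower. At an unadjusted p under 0.05 limma gave 0 higher and 4 lower (23.0% of all genes tested), and after adjustment edgeR and DESeq2 each gave 0 higher and 2 lower. All 9 estimates were again negative, as were 52.9% of those of all genes tested, and the median of the 9 was -0.33. The groups did not overlap for Dpt, Gsn and Dpp4, 3 of the 9, beside 12.9% of all genes tested.

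Dpt was at 337 to 379.6 in WT ligated and at 156 to 250.1 in BKO ligated. The highest BKO library, number 6, was well below the lowest WT library, also number 6. The group means were 357 ± 18.7 and 199 ± 39.4 (SD, n = 4 each), the log2 difference was -0.86 ± 0.15 (SE, limma adjusted p = 0.000836), and the level was 1.82 times lower in BKO. Gsn was at 8424 to 9832 in WT ligated and 5504 to 7413 in BKO ligated, again with no overlap. Its log2 difference was -0.51 ± 0.14 (SE, limma adjusted p = 0.0277), 1.42 times lower. Without BKO ligated 4 and 5, the libraries richest in mt-Rnr2, the adjusted p of Gsn was 0.116, and leaving out any 1 of 5 of the 8 libraries also ended that call (adjusted p up to 0.0984). The call on Dpt held in all of these.

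Dpp4 and Pi16, the pair that marks the progenitor-like branch, had estimates that did not pass and that moved with single libraries. Dpp4 was at 30.8 ± 3.43 in WT ligated and 19.5 ± 9.33 in BKO ligated (SD, n = 4 each), a log2 difference of -0.81 (95% interval -1.53 to -0.09, limma adjusted p = 0.164). Every BKO value was below every WT value, by the smallest of margins: 25.8 in BKO ligated 4 against 26.4 in WT ligated 6. The estimate was -0.35 without BKO ligated 2, the library with 6 reads of it, and reached -0.996 without BKO ligated 4. Pi16 was at 93.4 ± 30.5 and 59.8 ± 31.2, a log2 difference of -0.82 (95% interval -1.63 to -0.01, limma adjusted p = 0.208). Its estimate was -0.30 without BKO ligated 5, the library with 16 reads of it. Cd34 and Pdgfra had the smallest estimates, at -0.13 (95% interval -0.40 to 0.15) and -0.18 (95% interval -0.49 to 0.12). Ly6a, Smoc2 and Mfap5 lay at -0.27, -0.21 and -0.33, none past the test. BKO ligated 5 had the lowest value of its group for 6 of the 9 genes.

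Whether ligation moved a gene by a different amount in the genotypes was tested as the interaction. Of the 9, only Dpt passed (limma), beside 6.01% of all genes tested called in either direction, 3.04% higher and 2.97% lower. Unadjusted limma (21.7% of all genes tested), edgeR and DESeq2 each gave 0 higher and 1 lower. The ligation difference of Dpt was smaller in BKO, with an interaction of -0.71 ± 0.21 on the log2 scale (SE, 95% interval -1.15 to -0.28, limma adjusted p = 0.0448). The call was a narrow one. It was lost without any 1 of 15 of the 18 libraries (adjusted p up to 0.0936, without BKO ligated 5) and without BKO ligated 4 and 5 (-0.58, adjusted p = 0.189). For Cd34 and Gsn the interaction estimates were -0.04 (95% interval -0.41 to 0.33) and -0.07 (95% interval -0.47 to 0.32). For Pi16 and Dpp4 the intervals were wide, -1.42 to 0.75 and -0.85 to 1.09. The ligation and genotype comparisons share groups of libraries, so their values are given side by side and were not correlated with each other.

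The genes did not keep fixed proportions to each other. As a description, each was set against Pdgfra of the same library as a log2 ratio of normalised counts, which removes any change that all of them share. The Smoc2 ratio was 1.46 ± 0.11 in WT intact and 0.90 ± 0.15 in WT ligated, and 1.56 ± 0.14 in BKO intact and 0.87 ± 0.30 in BKO ligated (SD). In both genotypes every ligated library was below every intact one. The Dpt ratio was -0.79 ± 0.20 in WT intact, -0.76 ± 0.20 in BKO intact and -0.81 ± 0.18 in BKO ligated, but -0.13 ± 0.07 in WT ligated, apart from all libraries of the other 3 groups. The Pi16 ratio was -1.28 ± 0.62 in WT intact, -2.10 ± 0.43 in WT ligated, -1.58 ± 0.41 in BKO intact and -2.74 ± 0.77 in BKO ligated. That of Dpp4 was -3.02 ± 0.44, -3.63 ± 0.19, -3.77 ± 0.55 and -4.25 ± 0.96 in the same order. Intact and ligated libraries overlapped for Pi16 in WT but not in BKO, and for Dpp4 in both genotypes. The Gsn ratio was 4.18 ± 0.09 in WT intact and 4.54 ± 0.12 in WT ligated. For Ly6a the group means lay between -1.18 and -1.03 and for Mfap5 between -2.45 and -2.25, with all 4 groups overlapping.

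**Figure D3:**
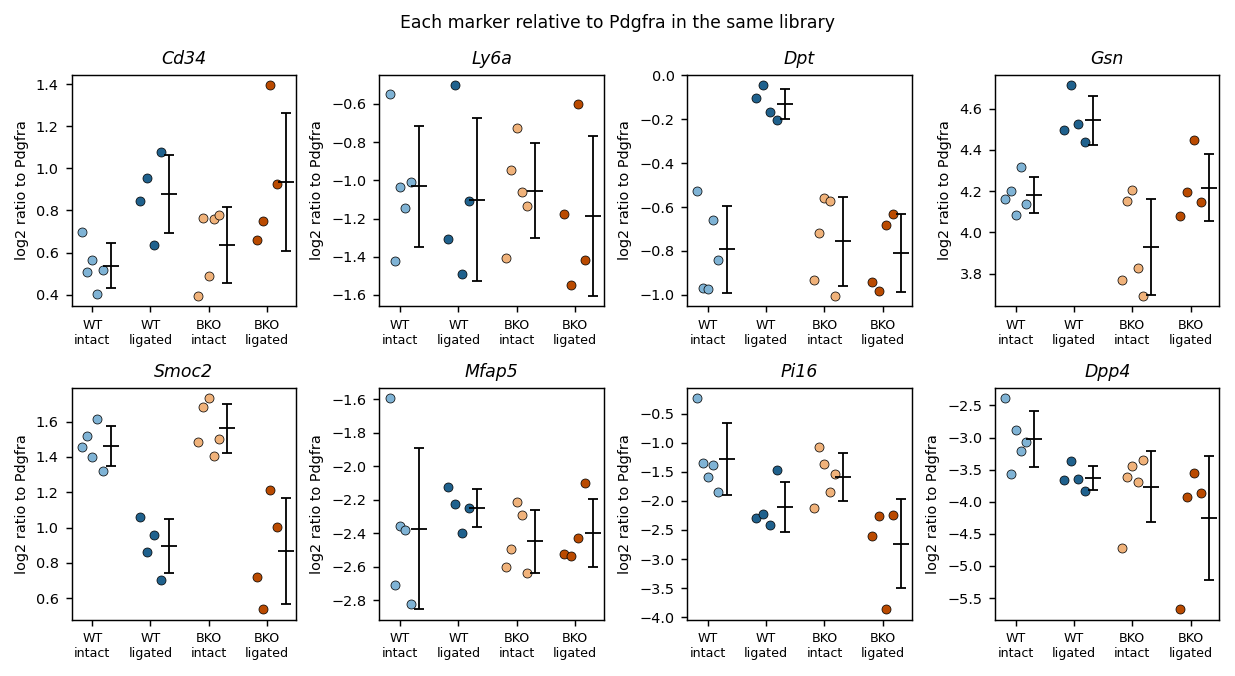
Log2 ratio of each of the other 8 genes to Pdgfra in the same library, by group, with points for libraries and a bar for the mean with its SD. The Smoc2 points are lower in ligated than in intact limbs of both genotypes (means 1.46 and 0.90 in WT, 1.56 and 0.87 in BKO), and the Dpt points of WT ligated, with a mean of -0.13, stand above those of the other groups.

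A list of 24 other fibroblast genes, of which 22 were tested, gave 10 higher and 2 lower in WT ligation (median log2 difference 0.43), and 9 higher and 1 lower in BKO ligation (median 0.36). Of all genes tested, 18.7% passed higher and 21.1% lower in WT ligation, and 22.1% and 25.1% in BKO ligation. In BKO ligation the share of the list called in either direction was near that of all genes. Among them Ccdc80, a matrix-binding secreted protein, rose by 1.82 ± 0.25 in WT (limma adjusted p = 1.02e-05), Fbn1, which encodes fibrillin of the microfibrils that Mfap5 binds and is also on the elastic fibre list below, by 0.87, and Crispld2 fell by 0.81. In BKO mice Gas1 rose by 1.05, Col15a1 by 1.10 and Clec3b by 0.94, and Crispld2 fell by 0.78. Between BKO and WT the same list gave 0 higher and 7 lower in intact limbs (median -0.29), and 0 higher and 5 lower in ligated limbs (median -0.40). Of all genes tested, 8.56% passed higher and 9.75% lower in intact limbs, and 4.16% and 4.68% in ligated limbs. The shares of all genes given here and for ligation are also the background for the counts of the other lists below. Gas1, Serping1, Efemp1 and Apod fell in intact limbs, by 0.60, 0.48, 0.87 and 0.69. In ligated limbs Cd55 fell by 0.61, Serping1 by 0.60, Efemp1 by 0.98 and Ccdc80 by 1.02. Cd55, a complement regulator, was the 1 gene of the 22 tested to pass the interaction (-0.57, limma adjusted p = 0.00959), beside 6.01% of all genes tested. Its means were 576 ± 16.4 in WT intact, 835 ± 51.6 in WT ligated, 561 ± 67.1 in BKO intact and 546 ± 45.3 in BKO ligated, so that, as with Dpt, WT ligated stood apart. Like Pi16 and Dpp4, Cd55 marks the adventitial branch, but those 2 did not share its pattern. Cd55 rose by 0.53 in WT ligation, where Pi16 and Dpp4 had estimates of -0.37 and -0.16. Their interaction estimates were -0.33 and 0.12, and none of these 4 values passed.

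**Figure D4:**
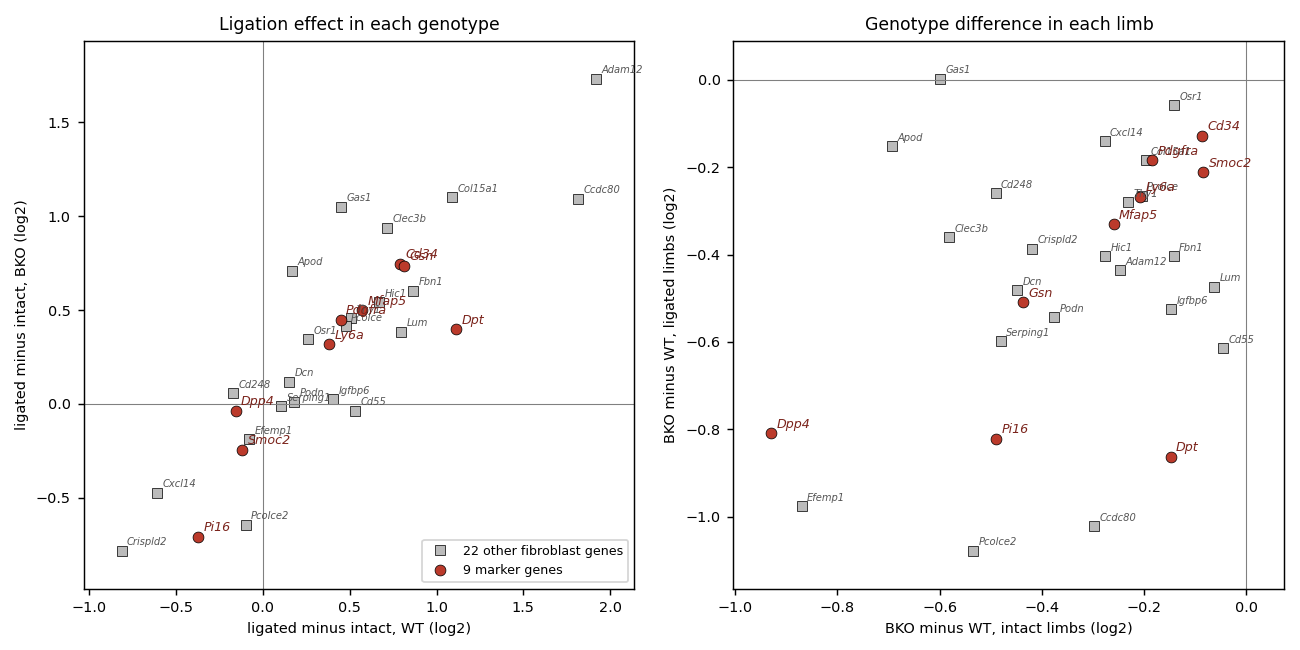
Limma log2 differences of the 9 genes (circles) and of the 22 other fibroblast genes tested (squares), 1 point a gene: at left ligated minus intact in BKO against the same in WT, at right BKO minus WT in ligated against intact limbs. At right, all 22 other fibroblast genes lie below 0 in intact limbs and 21 of the 22 in ligated limbs, with Dpt low on the vertical axis alone.

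Among the genes around Pdgfra in its pathway, 5 of 6 were tested, and 4 rose with ligation in WT and 3 in BKO. The pericyte receptor Pdgfrb rose by 1.01 in WT and 1.22 in BKO, the endothelial ligand Pdgfb by 0.73 and 0.69, and the ligand Pdgfd by 1.20 and 1.06. The receptor-like Pdgfrl rose by 1.95 in WT, and its estimate in BKO was 0.76 (limma adjusted p = 0.0788). The ligand Pdgfa passed in neither genotype, with log2 differences of -0.29 in WT and -0.26 in BKO (limma adjusted p = 0.107 and 0.129). Pdgfrb was the 1 of the 5 to differ between genotypes, with a log2 difference of -0.37 in intact limbs (limma adjusted p = 0.00236). Of 11 factors secreted by these progenitors, 9 were tested, and 4 rose and 1 fell in WT ligation, and 3 rose and 2 fell in BKO ligation. Gdf10, a TGF-beta family member, rose by 0.96 in WT and by 1.45 in BKO, and Igf1 rose by 0.68 in WT. Those that fell were Il33 in both genotypes (log2 differences -0.84 in WT and -0.65 in BKO) and Il15 in BKO (-0.85). Between genotypes Cxcl12 and Gdf10 were lower in BKO intact (log2 differences -0.41 and -0.67, limma adjusted p = 0.0107 and 0.0154). Il15, a cytokine that muscle fibres also make, was the 1 factor to differ between genotypes in ligated limbs (log2 difference -1.40, limma adjusted p = 0.00297) and in the interaction (-1.497, adjusted p = 0.0254).

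Fibroblasts that have left the progenitor state are known as the main makers of collagen. Of 13 fibrogenic genes 12 were tested, and 7 rose and 2 fell in WT ligation, and 8 rose and 3 fell in BKO ligation. The collagens Col3a1 and Col1a1 rose by 2.13 and 1.78 in WT and by 1.78 and 1.79 in BKO. Between genotypes 1 of the 12, Tgfb3, was higher in BKO in intact limbs (0.91) and in ligated limbs (0.43), and Tgfb2 was lower in intact limbs (-0.58). No collagen among the fibrogenic genes passed either genotype comparison. Of 13 elastic fibre genes, the system to which Mfap5 belongs, 11 were tested, and 9 rose in WT ligation and 8 in BKO ligation with none lower, elastin (Eln) by 1.99 and 1.96. Ltbp4 and Ltbp1, which tether latent TGF-beta to microfibrils, were the 2 lower in BKO intact (-0.74 and -0.59), and none of the 11 passed between genotypes in ligated limbs.

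Markers of other cell types moved with ligation beside the 9 genes. Of 14 endothelial markers, 11 rose in WT and 12 in BKO, and their summed level went from 3434 to 4097 in WT intact to 5053 to 6585 in WT ligated, and from 3542 to 4348 in BKO intact to 5588 to 7446 in BKO ligated. The sum of the 9 genes, most of it Gsn, was 6464 to 7890, 11025 to 12476, 4019 to 7249 and 7407 to 9602 in the same 4 groups. All 10 adipocyte markers rose in WT and 9 in BKO, with sums of 2542 to 3286 in WT intact, 8154 to 11390 in WT ligated, 2722 to 3300 in BKO intact and 4277 to 8548 in BKO ligated. Most of the intact sums was Plin4, at a mean of 2093 in WT intact and 2182 in BKO intact, where the sums averaged 3018 and 3089. Plin1 averaged 6.12 and 3.96 there, so these sums understate the rise of such low markers. Plin4 was the 1 that did not pass in BKO ligation (0.09, limma adjusted p = 0.574). Of 12 macrophage markers, 7 rose and 1 fell in WT, and 1 rose and 1 fell in BKO, with sums of 614 to 843, 1114 to 1367, 465 to 867 and 620 to 969. Between BKO and WT no endothelial marker passed in either limb, whereas in ligated limbs 3 adipocyte and 3 macrophage markers were lower and none higher. The adipocyte marker Lep was the 1 of the 10 that was also lower in BKO intact. The interaction passed, with negative estimates as for Dpt, for the adipocyte markers Plin4 (-0.65) and Lipe (-1.16) and the macrophage markers Itgam (-2.09) and Lyz2 (-0.96). In the lists of the last section it passed with positive estimates for the tendon gene Mkx (2.72) and the myogenic gene Chodl (0.96). There it was negative for the Schwann cell gene Mbp (-0.93). Of all genes tested, 3.04% passed the interaction higher and 2.97% lower. All of these genes and Lep were named after their values were seen. Smooth muscle and pericyte markers, 11 tested of 12, went both ways with ligation. In WT 5 rose and 3 fell (median log2 difference -0.12), and in BKO 5 rose and 2 fell (median 0.08). Between genotypes 5 of them were lower in BKO intact and 0 in BKO ligated. All 8 lymphocyte markers were below a mean of 10, with sums of 1.29 to 33.9, and Cd3e, Cd3d, Cd3g and Cd8a were at 0 in all WT intact libraries. The part of these cells, of the lower fast fibre sums in ligated limbs, and of the mt-Rnr2 share, in the differences of the 9 genes was not tested.

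For each of the 9 genes, the 2 genes with the most similar profile were sought among 8233 others (8234 for Dpp4) with a mean of at least 50, by the root mean square difference of centred log2 values over the 18 libraries. Gsn had the closest match, the basement membrane protein gene Nid1 (0.123). Pdgfra was nearest to Frmd6 (0.140) and the matrix gene Fbln2 (0.145), and Cd34 to Naalad2 (0.143) and Anxa5 (0.157). Smoc2 was nearest to Fam204a and Tmed2 (0.140 each). Ly6a was nearest to Prkd3 (0.181) and to its family member Ly6c1 (0.183), and any sharing of reads between Ly6a and Ly6c1 was not measured. Dpt was nearest to Itih5 (0.198) and Nid1 (0.203), and Mfap5 to the proteoglycan gene Bgn (0.208) and to Fndc1 (0.209). Pi16 (0.440 to Pcsk6, 0.464 to Kcnc4) and Dpp4 (0.392 to Tsc22d3, 0.437 to Plp2) had larger differences to their nearest genes, and also a larger spread of their own over the 18 libraries (SD 0.727 and 0.657 on the log2 scale, against 0.234 for Smoc2 and 0.533 for Dpt).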

How the data were processed

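RNA of the tibialis anterior was sequenced in 18 libraries made from total RNA with a stranded kit, per the labels' protocols. Per the submitters' processing notes, the tools were Trimmomatic 0.33, STAR 2.5.2, RSEM 1.3.3 and DESeq2, on build mm10. Not given in the sources used here are the gene models and the strand option of the counting. Values in the deposited table are a signal: gene counts that the authors divided by a size factor for each library. Whole reads were recovered from the steps between low values (within 0.001 of a whole number), and give 14089381 to 25629204 reads a library. Intervals are built from the spread between libraries within groups, estimated over all 4 groups together. limma 3.58.1 (R 4.3.3, trend on) was fitted to log2(normalised count + 1) of the 12262 genes with a mean of at least 10, with 1 mean for each of the 4 groups over all 18 libraries. Adjusted p-values of the main limma fit and of edgeR are Benjamini-Hochberg over all 12262 genes. DESeq2 was run on all 20922 genes with its own adjustment, and fits with another filter were adjusted over the genes they kept. The threshold was 0.05 throughout, so counts of genes called by these do not cover the same set of genes. Differences are on the log2(normalised count + 1) scale, which understates those of low genes. edgeR 4.0.16 and DESeq2 1.42.0 on the recovered reads, other pseudocounts and filters, the replicate number as a block, and leaving out libraries were the alternatives. The scripts were tested on simulated data. The 9 genes and all gene lists were chosen with earlier results of these data known. From each other list up to 4 genes with the smallest p in the comparison were eligible to be named, with defining markers at or near 0, and for each of the 9 the 2 nearest profiles, of which 1 is not reported here. Counts differed beyond sampling noise in all 32 pairs of libraries from 1 group, with a chi-square of 7.77 to 155 per degree of freedom.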

Additional observations from a re-analysis of the deposited data

Results flagged for a closer look

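Of 36 combinations of a gene and a group, 3 held a library far from the others by Dixon's criterion, which chance meets in about 1 of 20 groups. Pi16 was at 139 in WT ligated 6, where the other 3 libraries were between 75.9 and 79.4. Pi16 was also at 135 in BKO intact 2, with the other 4 between 68.7 and 82.7. Smoc2 was at 777 in BKO ligated 6, with the other 3 between 584 and 587. The ligation difference of Dpt differed between genotypes in the test of that difference itself (interaction -0.71 on the log2 scale, limma adjusted p = 0.0448).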

How the results depend on the processing

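Of the 14 calls on the 9 genes, 7 held under every alternative run: Pdgfra, Cd34, Dpt and Gsn in WT ligation, Cd34 and Gsn in BKO ligation, and Dpt between genotypes in ligated limbs. The number of the 9 called, 2 in intact limbs between genotypes, was 1 with no filter, 1 with a mean of at least 50 (Dpp4 then being left out) and 1 with the replicate block. In ligated limbs between genotypes it was 1, not 2, both without the intensity trend and without BKO ligated 4 and 5, whose mt-Rnr2 shares are highest. For the interaction it was 0, not 1, with no filter, without the intensity trend and without those 2 libraries. Leaving out 1 library gave 4 to 6 in WT ligation, 2 to 5 in BKO ligation, 0 to 2 in intact and 1 to 2 in ligated limbs, and 0 to 1 for the interaction. The cause was not tested. Ly6a in WT ligation passed with edgeR (adjusted p = 0.0419) and Mfap5 in BKO ligation with edgeR (adjusted p = 0.0324).

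Correlations of the deviations of same-numbered libraries were -0.064 to 0.048 between limbs (7 pairs) and -0.055 to 0.12 between genotypes (8 pairs). These gave no sign of pairing by number. With 4 or 5 libraries a group they cannot exclude that same-numbered limbs are of 1 mouse. With the replicate block, the calls on Dpt in BKO ligation (0.31, adjusted p = 0.0876), Dpp4 in intact limbs (-0.78, adjusted p = 0.0706) and Gsn in intact limbs (-0.49, adjusted p = 0.0929) were not made, and Pi16 in intact limbs was (-0.58, adjusted p = 0.0215). Between genotypes the block matches different mice by number alone, and WT intact 6 and BKO intact 1 have no match there. The block gave 1492 genes called in intact limbs in place of 2246, and 382 for the interaction in place of 737. For the interaction the count was 450 without the intensity trend, 1136 with DESeq2, 269 without those 2 libraries and 402 to 1015 without 1 library, and in ligated limbs it was 616 without those 2 libraries in place of 1084.

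Estimates that changed sign were all of genes without a call in the comparison concerned, though some of these genes had a call in another. For Dpp4 in BKO ligation the values were 0.00062 with a pseudocount of 5, 0.15 with edgeR, 0.11 with DESeq2 and -0.23 to 0.42 without 1 library. In intact limbs Cd34 ranged from -0.16 to 0.0089 and Smoc2 from -0.16 to 0.012. With the block the interaction was -0.0628 for Pdgfra, 0.0436 for Ly6a and -0.15 for Dpp4. Without the 2 libraries it was 0.10 for Pi16, -0.28 for Dpp4 and 0.12 for Mfap5, which was at 0.0013 with edgeR. Without 1 library the interaction ran from -0.0808 to 0.152 for Pdgfra, -0.137 to 0.0335 for Cd34, -0.163 to 0.0988 for Ly6a, -0.568 to 0.193 for Pi16, -0.0675 to 0.578 for Dpp4, -0.214 to 0.0251 for Gsn and -0.227 to 0.0892 for Mfap5. The lowest values of Dpp4 and Pi16 rest on 6 and 16 reads, in libraries of 19335315 and 25629204 reads.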

Other observations

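Genes of tendon, another connective tissue that shares matrix genes with these stromal cells, and of satellite cells were measured in the same fit. The shares of all genes tested that were given beside the other fibroblast genes are the background here too. Of 8 tenocyte markers, 3 rose and 1 fell in WT ligation, 6 rose in BKO ligation, 4 were lower in BKO intact than in WT intact, and none passed between genotypes in ligated limbs. Of 10 satellite cell and myogenic genes 9 were tested, and 4 rose and 1 fell in WT ligation, 6 rose in BKO ligation, 2 were lower in BKO intact and 2 were higher in BKO ligated. Of 8 Schwann cell markers 5 were tested, and 2 rose in WT ligation and 1 fell in BKO ligation. Between genotypes 1 of them was higher in BKO intact and 1 was lower in BKO ligated.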
